A study of Mus musculus with 5 samples.

Results

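The regions described here are the CpG islands and island shores at the mouse loci whose imprint is laid down on the paternal allele. These loci are Rasgrf1, the Dlk1 and Meg3 domain, the H19 and Igf2 domain, and Zdbf2. Members were taken by position alone: every island or shore listed in CG context by at least 2 libraries and overlapping chromosome 9, 89860000 to 90030000, chromosome 12, 109450000 to 109575000, chromosome 7, 142570000 to 142680000, or chromosome 1, 63250000 to 63320000 (mm10). This gave 15 regions of the 32549 islands and shores listed by 2 or more libraries. Of the 15, 7 were islands and 8 were shores. The Rasgrf1 window held 2, the Dlk1 and Meg3 window 4, the H19 and Igf2 window 4 and the Zdbf2 window 5. In all, 13 were listed by every library. The other 2 were the shore upstream of Meg3 and the Zdbf2 shore at chromosome 1, 63307156 to 63309156. These 2 shores were listed by pESC-PGCLC, ESC-PGCLC, PGC and pESC but not by female ESC. No member region lay at H19 or at the start of Meg3, so neither is analysed here.

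Methylation was read by reduced representation bisulfite sequencing (RRBS), which cuts DNA with MspI at CCGG and so samples the CpG-rich part of the genome. There were 5 libraries of C57BL6 mice, 1 for each group. Parthenogenetic germ cell-like cells (pESC-PGCLC) and germ cell-like cells from a biparental female line (ESC-PGCLC) were made from stem cells adapted to 2i and LIF medium with less PD0325901. They passed through 46 h of epiblast-like culture with activin A, bFGF and KSR on fibronectin and then 4 days of floating culture with BMP4, LIF, SCF and EGF, and cells positive for both CD61 and SSEA1 were sorted. Primordial germ cells (PGC) came from fetal gonads at E12.5 by magnetic SSEA1 selection, with no sex given in the labels. Parthenogenetic embryonic stem cells (pESC) and female ESC were grown on feeder cells in serum with LIF. Each stem cell group is a single line, the share of feeder DNA in its library was not tested. With 1 library a group, differences below carry neither a replicate error nor a test.

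Genomic imprinting restricts a gene's expression to the allele inherited from 1 parent, through DNA methylation placed in the egg or in the sperm. Most imprints of the mouse are set in the egg, and the loci described here belong to the small set marked in sperm. The members were taken by position, and which of them overlap a sperm-marked sequence was not tested. A level at a gene start or in a gene body need not reflect the paternal mark. A parthenogenetic genome holds maternal chromosomes alone, and so has no allele that passed through sperm. Primordial germ cells erase the marks of both parents before new ones are set. A level measured on bulk DNA averages both alleles and all cells, so fewer cells carrying a mark and less methylation in every cell cannot be told apart.

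Igf2, the fetal growth factor gene expressed from the paternal allele, has several RefSeq starts, and members of differing level lie on some of them. An Igf2 start whose preceding 250 bases overlap an island member by only 47 bases is left out. The 250 bases before 4 starts are printed because member regions lie on them, with each CpG, the site of methylation, in capitals. They are from RefSeq (GRCm38.p6, the mm10 assembly) and read 5′ to 3′ on the gene's strand.
Igf2 start in the methylated shore, chr7:142657497-142657746, minus strand: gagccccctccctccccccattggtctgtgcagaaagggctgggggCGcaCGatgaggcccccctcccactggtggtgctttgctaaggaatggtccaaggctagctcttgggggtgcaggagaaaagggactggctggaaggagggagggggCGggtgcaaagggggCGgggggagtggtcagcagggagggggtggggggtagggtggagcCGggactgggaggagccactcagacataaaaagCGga
Igf2 start in the unmethylated island, chr7:142658805-142659054, minus strand: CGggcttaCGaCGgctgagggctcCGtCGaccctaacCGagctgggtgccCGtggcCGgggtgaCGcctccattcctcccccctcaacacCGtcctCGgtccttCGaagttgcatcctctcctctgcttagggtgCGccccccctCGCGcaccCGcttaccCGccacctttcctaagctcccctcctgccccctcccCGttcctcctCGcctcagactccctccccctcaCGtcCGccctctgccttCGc
Rasgrf1 start in its island, chr9:89909525-89909774, plus strand: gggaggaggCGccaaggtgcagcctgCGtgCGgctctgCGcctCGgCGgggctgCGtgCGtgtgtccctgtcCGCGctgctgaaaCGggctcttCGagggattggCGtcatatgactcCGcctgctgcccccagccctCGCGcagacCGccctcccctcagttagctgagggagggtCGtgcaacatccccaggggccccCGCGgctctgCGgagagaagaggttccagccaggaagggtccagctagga
Zdbf2 internal start, on its shore and island, chr1:63273019-63273268, plus strand: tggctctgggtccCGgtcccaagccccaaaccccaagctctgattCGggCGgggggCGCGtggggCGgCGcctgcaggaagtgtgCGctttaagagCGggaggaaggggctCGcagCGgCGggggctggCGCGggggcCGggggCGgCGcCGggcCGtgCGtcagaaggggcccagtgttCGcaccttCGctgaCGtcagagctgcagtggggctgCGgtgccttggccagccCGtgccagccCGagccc

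The Igf2 sequence in the shore holds 6 CpG sites, the median of the 32851 promoters in the RefSeq table over the same 250 bases. The Igf2 sequence in the island holds 22, that of Rasgrf1 21 and that of Zdbf2 26. The MspI site CCGG, the same on both strands, occurs once in each Igf2 sequence, 3 times in that of Zdbf2 and 0 times in that of Rasgrf1, and 47.1% of all promoters of that length hold it. The levels below are those of the whole region around each sequence. Of the 6 genes, 5 had promoters in the RefSeq table.

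Among islands and shores in general, shores were the more methylated class. Their mean level was 12.3% in pESC-PGCLC, 12.7% in ESC-PGCLC, 11.5% in PGC, 13.1% in pESC and 14.3% in female ESC, against 3.49% (PGC) to 3.98% (female ESC) in islands. Islands of germline genes, which are known to lose methylation as germ cells form, were measured for 6 of 9 listed genes. Their median was 19.9% in pESC-PGCLC, 26.7% in ESC-PGCLC, 19.6% in PGC, 21.7% in pESC and 28.2% in female ESC. In PGC these islands were at 10.2% (Ddx4), 16.3% (Dazl), 22.9% (Mael), 23.2% (Sycp1), 41.2% (Sycp3) and 13.8% (Hormad1). None was unmethylated there, and Ddx4 was highest in PGC. Of 8 genes that protect or copy imprints, 6 had an island at a start (Zfp57, Zfp445, Trim28, Dnmt1, Uhrf1 and Ctcf), with levels from 1.01% to 1.89% over all libraries. The tables give levels without read counts, so the depth behind each level is unknown.

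The members were of 2 kinds. A mean of at least 20% over the libraries was reached by 4 of the 13 members listed in all of them: the shore upstream of Rasgrf1, an island inside Dlk1 and both shores of Igf2. Of all 30910 islands and shores listed in every library, 4191 (13.6%) reached it. The next below that level was the Zdbf2 shore at chromosome 1, 63307156 to 63309156, with a mean of 17.1%. The lowest above it was the farther Igf2 shore, with 21.8%. At the other end, 9 of the 15 stayed under 10% in every library that lists them. The 4 islands at gene starts lay between 1.27% and 2.70% in all libraries, close to the medians of all islands (1.48% to 1.65%).

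**Figure D1:**
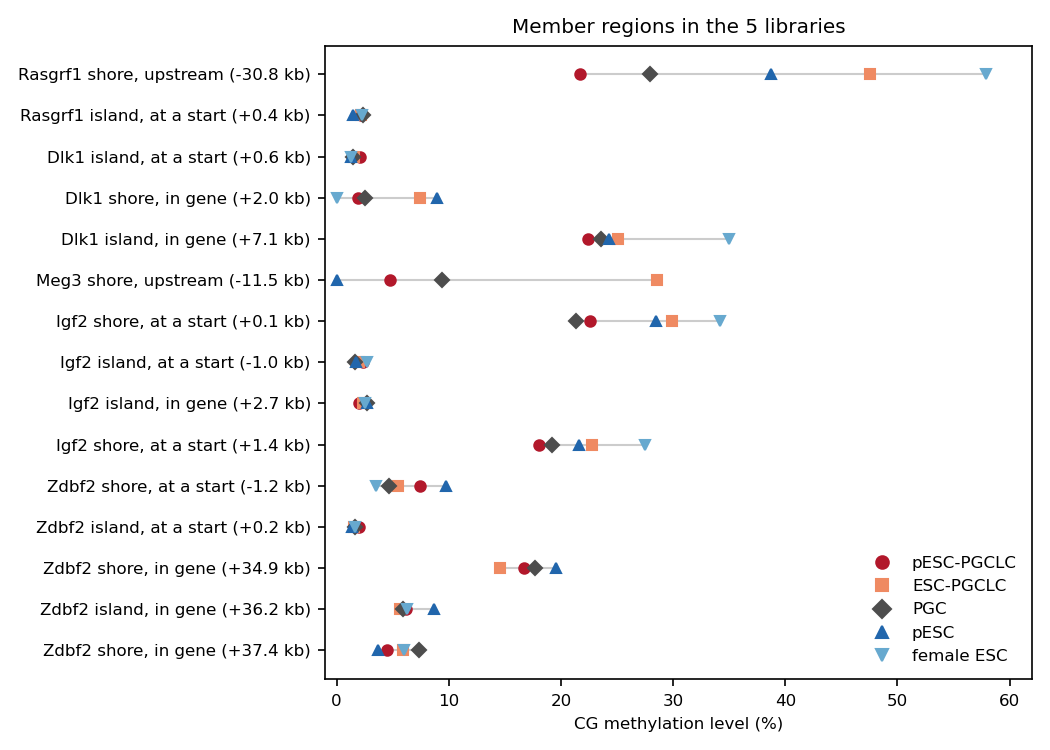
CG methylation level (percent, horizontal axis) of the 15 member regions in the 5 libraries, 1 marker per library, with the distance of each region's centre from the nearest RefSeq start of the gene. The shore upstream of Rasgrf1 spans 21.7% to 57.9%, while the islands at gene starts stay under 3%.

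Rasgrf1 encodes a guanine nucleotide exchange factor for Ras, expressed from the paternal allele in the newborn mouse brain, and its germline methylation is known to lie far upstream of the gene. The member shore there, chromosome 9, 89877672 to 89879672, has its centre 30.8 kb before the RefSeq start. It was at 21.7% in pESC-PGCLC, 47.6% in ESC-PGCLC, 27.9% in PGC, 38.7% in pESC and 57.9% in female ESC. Both parthenogenetic libraries were thus below their biparental counterparts, and neither was near 0. The island over the Rasgrf1 start, chromosome 9, 89908631 to 89911157, was at 2.14% in pESC-PGCLC, 2.13% in ESC-PGCLC, 2.35% in PGC, 1.42% in pESC and 2.23% in female ESC, a spread of 0.928 points.

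Compared with female ESC, the Rasgrf1 shore had 66.9% of its level in pESC, 82.2% in ESC-PGCLC, 48.3% in PGC and 37.6% in pESC-PGCLC. The median over 3680 shores with a mean of at least 20% was 88.9% in pESC, 85.6% in ESC-PGCLC, 74.5% in PGC and 80.2% in pESC-PGCLC. ESC-PGCLC was therefore near the class, and pESC, PGC and pESC-PGCLC were below it. Its non-CpG (CHH) level was 1.51% in pESC-PGCLC, 1.48% in ESC-PGCLC, 0.961% in PGC, 0.751% in pESC and 0.399% in female ESC, small beside the CpG level in each library.

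**Figure D2:**
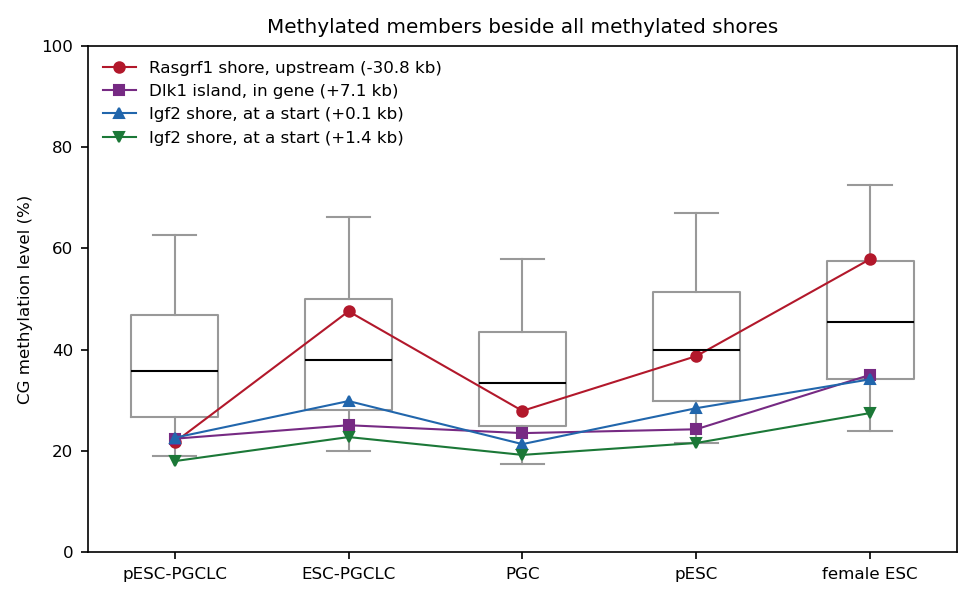
CG methylation level (percent) of the 4 members with a mean of at least 20%, 1 line each, over boxes for the 3680 shores with such a mean (median, quartiles, whiskers at the 5th and 95th percentiles) in each library. The Rasgrf1 shore lies at the upper quartile in female ESC (57.9%) and below the lower quartile in pESC-PGCLC (21.7%).

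Dlk1, a membrane protein related to Notch ligands and expressed from the paternal allele, shares its domain with Meg3, a noncoding RNA expressed from the maternal one. The region between them holds the intergenic germline methylation that controls both. The member shore in that interval, chromosome 12, 109528472 to 109530473, has its centre 11.5 kb before the Meg3 start. It was at 4.76% in pESC-PGCLC, 28.6% in ESC-PGCLC and 9.38% in PGC, was listed at 0 in pESC and was not listed in female ESC. ESC-PGCLC was the highest of these 4 libraries, and both parthenogenetic ones were the lowest. The depth here is unknown, so a small number of reads could make these gaps. The CHH level there was 0.532% in pESC-PGCLC, 2.18% in ESC-PGCLC, 0.619% in PGC and 0.200% in pESC. Levels of exactly 0% or 100% were listed for 3.12% of shores in pESC.

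The island inside Dlk1, chromosome 12, 109459744 to 109460028, is 285 bp long and its centre lies 7.06 kb after the gene's start. Its level was 22.4% in pESC-PGCLC, 25.1% in ESC-PGCLC, 23.5% in PGC, 24.3% in pESC and 35.0% in female ESC. Female ESC stood apart as the highest library, and the other 4 lay close together. At the Dlk1 start the island was at 2.12% in pESC-PGCLC, 1.57% in ESC-PGCLC, 1.47% in PGC, 1.27% in pESC and 1.28% in female ESC. The shore that follows it, chromosome 12, 109453847 to 109455848, was at 1.89% in pESC-PGCLC, 7.41% in ESC-PGCLC, 2.53% in PGC and 8.97% in pESC and was listed at 0 in female ESC. It was higher in ESC-PGCLC than in female ESC and lower in pESC-PGCLC than in pESC. Opposite changes of at least 5 points were seen in 1 of the 13 members listed in these 4 libraries and in 0.724% of 30942 islands and shores. The nearest methylated shore outside the window, 48.1 kb before it, was at 44.2% in pESC-PGCLC, 49.1% in ESC-PGCLC, 39.6% in PGC, 46.3% in pESC and 53.3% in female ESC.

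At Igf2, methylation was in the shores and not in the islands. The shore at chromosome 7, 142656370 to 142658370, which holds the first Igf2 sequence printed above, was at 22.6% in pESC-PGCLC, 29.9% in ESC-PGCLC, 21.4% in PGC, 28.5% in pESC and 34.1% in female ESC. The island beside it, chromosome 7, 142658371 to 142661318, which holds the CpG-rich second sequence, was at 2.37% in pESC-PGCLC, 2.00% in ESC-PGCLC, 1.66% in PGC, 1.75% in pESC and 2.70% in female ESC. The farther pair showed the same contrast. The island at chromosome 7, 142663909 to 142664388, was at 2.00% in pESC-PGCLC, 2.39% in ESC-PGCLC, 2.74% in PGC, 2.68% in pESC and 2.49% in female ESC. The shore at chromosome 7, 142664388 to 142666389, was at 18.0% in pESC-PGCLC, 22.8% in ESC-PGCLC, 19.2% in PGC, 21.6% in pESC and 27.5% in female ESC. In both shores female ESC was the highest library, followed by ESC-PGCLC and pESC, with PGC and pESC-PGCLC lowest; the Dlk1 island and the Rasgrf1 shore had that order too.

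Zdbf2, a zinc finger gene expressed from the paternal allele and studied for its effect on early growth, has a RefSeq start upstream of the window and an internal one within it. The shore before the internal start, chromosome 1, 63271062 to 63273062, was at 7.41% in pESC-PGCLC, 5.51% in ESC-PGCLC, 4.67% in PGC, 9.71% in pESC and 3.55% in female ESC. Here both parthenogenetic libraries were the highest. The island at the internal start, chromosome 1, 63273063 to 63273913, was at 1.98% in pESC-PGCLC, 1.51% in ESC-PGCLC, 1.61% in PGC, 1.34% in pESC and 1.59% in female ESC. Farther into the gene, the shore at chromosome 1, 63307156 to 63309156, was at 16.7% in pESC-PGCLC, 14.6% in ESC-PGCLC, 17.7% in PGC and 19.6% in pESC. Its island, chromosome 1, 63309157 to 63309711, was at 6.22% in pESC-PGCLC, 5.67% in ESC-PGCLC, 5.91% in PGC, 8.67% in pESC and 6.25% in female ESC. There pESC was the highest library. The shore on the other side, chromosome 1, 63309711 to 63311712, was at 4.44% in pESC-PGCLC, 5.94% in ESC-PGCLC, 7.36% in PGC, 3.68% in pESC and 5.97% in female ESC, with the parthenogenetic libraries lowest. None of the Zdbf2 members varied by more than 6.16 points over the libraries that list them. The nearest methylated island outside the window, 45.3 kb beyond it, was at 69.2% in pESC-PGCLC, 77.1% in ESC-PGCLC, 66.4% in PGC, 75.4% in pESC and 82.6% in female ESC.

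**Figure D3:**
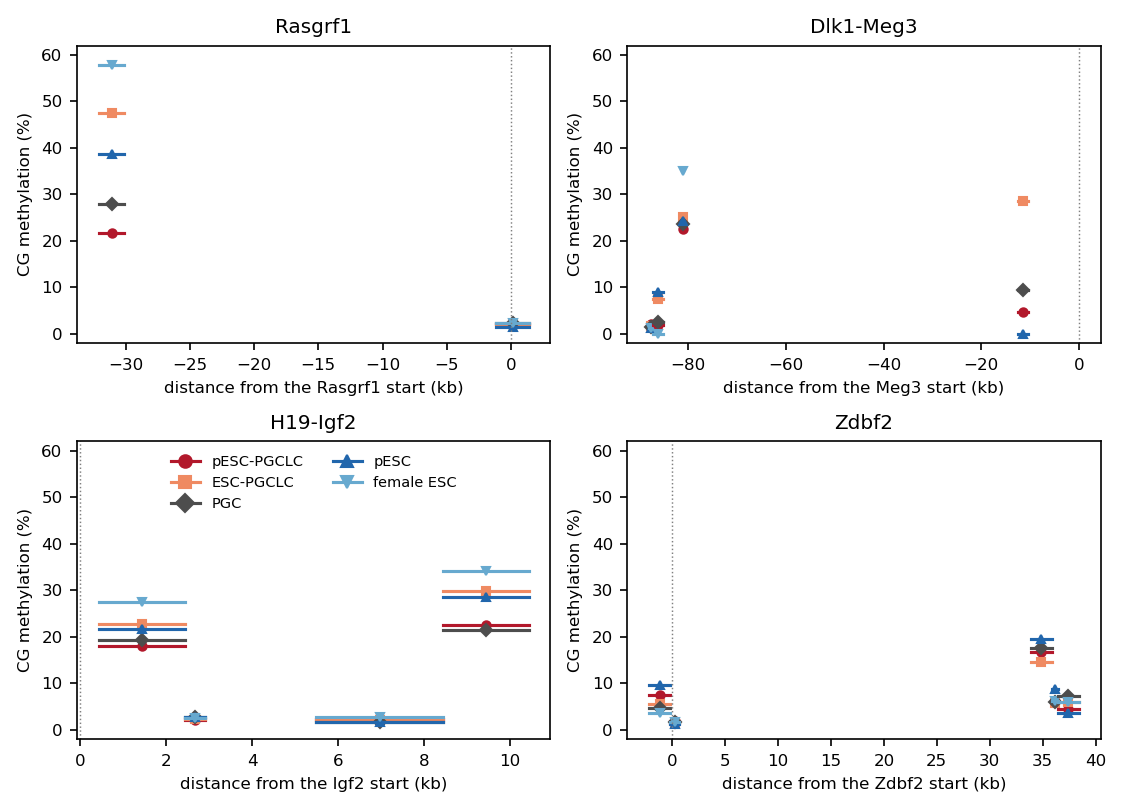
CG methylation level (percent) of each member region against its distance from a RefSeq start of Rasgrf1, Meg3, Igf2 or Zdbf2 (kb, positive into the gene, dotted line at 0; for Igf2 the start farthest upstream and for Zdbf2 the internal start), with 1 bar as wide as the region and 1 marker per library. Levels over 20% lie in the distal Rasgrf1 shore, the Igf2 shores, the Dlk1 island (left, 7.06 kb into Dlk1) and, in ESC-PGCLC alone, the shore upstream of Meg3.

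In pESC against female ESC, the comparison of a maternal genome with a biparental one, 0 of the 13 members listed by both differed by at least 25 percentage points in either direction, where 0.309% of 31033 islands and shores did. At 10 points 2 members differed, the Rasgrf1 shore (-19.1 points) and the Dlk1 island (-10.7 points), against 3.62% of all. Both had a mean of at least 20%, and 19.9% of all regions with such a mean differed by 10 points, as did 24.1% of such islands. Of the 13 members, 9 were lower and 4 higher in pESC, with a median of -0.81 points beside -0.158 points for all islands and shores. The 4 methylated members were all lower, as were 84.8% of the 4191 islands and shores with a mean of at least 20%. Their median was -8.32 points, beside -5.34 points over those 4191. The Igf2 shores, at -5.70 and -5.90 points, were close to that background, while the Rasgrf1 shore was past the 5th percentile of methylated shores (-14.6 points).

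Maternally methylated loci went the other way. Of the 44 islands and shores within 1 kb of or inside 15 such genes, 24 were at least 25 points higher in pESC than in female ESC and 0 at least 25 points lower, with a median of 28.4 points. In pESC-PGCLC against ESC-PGCLC, 23 were at least 25 points higher and 0 lower, with a median of 25.6 points.

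In pESC-PGCLC against ESC-PGCLC, 1 of 15 members differed by at least 25 points, the Rasgrf1 shore at -25.8 points, where 0.247% of all did. At 10 points the shore upstream of Meg3 (-23.8 points) was added, making 2, against 1.90% of all islands and shores. Among regions with a mean of at least 20%, as the Rasgrf1 shore has, the shares were 0.931% at 25 points and 7.78% at 10 points. The members had a median of -0.39 points, beside -0.0161 points for all, with 8 lower and 7 higher. The 4 methylated members were all lower, as were 70.9% of methylated regions, with a median of -5.99 points beside -2.25 points. The Igf2 shores were at -7.23 and -4.75 points. The Dlk1 island was at -2.66 points, a smaller gap than between the stem cell libraries.

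The Rasgrf1 shore was lower in the parthenogenetic library in both comparisons. They share no library, but each kind of germ cell-like cell was induced from stem cells of its own kind, so they are not independent, and parthenogenetic origin and other differences between the lines cannot be told apart. Of the 30910 islands and shores listed in every library, 99 (0.320%) were at least 10 points lower in both, and 1 of 13 members was. Ranked by the smaller of the 2 falls, the Rasgrf1 shore stood at place 6. The 5 above it were at Stpg2 (-24.8 and -25.0 points), Ppp1r2-ps5 (-23.3 and -23.1), Tubb1 (-23.0 and -25.0) and Gm29721 (-21.7 and -25.4), and on chromosome 4 with no gene near (-21.3 and -19.5), giving the stem cell difference first. The Rasgrf1 shore is thus 1 of 99 regions at least 10 points below the biparental library in both comparisons. Only 13.6% of the 30910 had a mean of at least 20%, and the share of the 99 among those was not counted. The Rasgrf1 shore was not alone, since these 5 regions outside the windows had larger falls by that measure. This ranking was added after the levels had been seen.

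**Figure D4:**
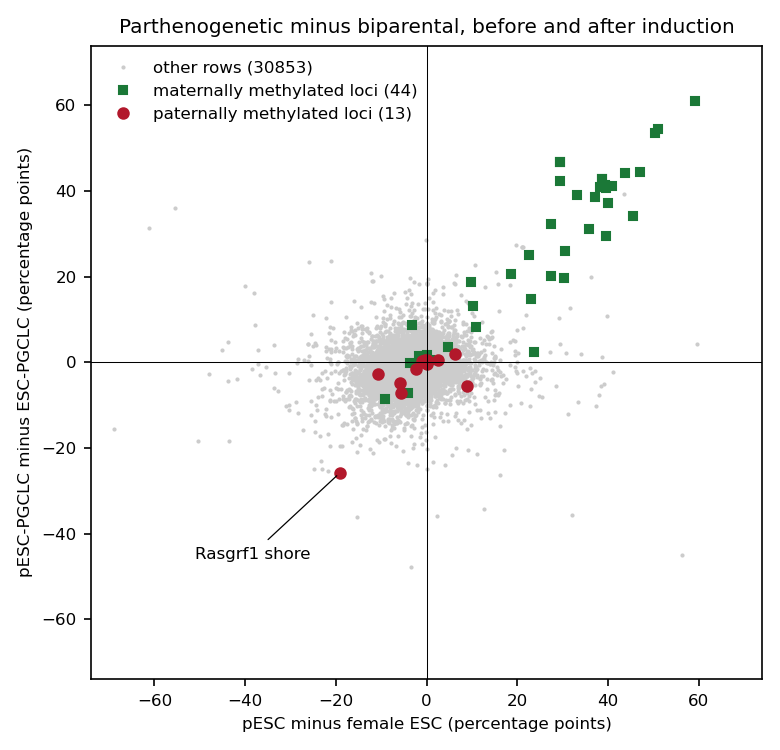
Difference between the parthenogenetic and the biparental library, in percentage points, for stem cells (pESC minus female ESC, horizontal axis) and for germ cell-like cells (pESC-PGCLC minus ESC-PGCLC, vertical axis), 1 point for each island or shore listed in every library. The Rasgrf1 shore (-19.1 and -25.8 points) lies at the lower left, the other 12 paternal members closer to the centre, and many maternally methylated regions at the upper right.

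The 4 methylated members were lower in germ cell-like cells than in stem cells of both lines. So were most methylated regions (88.7% in ESC-PGCLC against female ESC and 80.2% in pESC-PGCLC against pESC). These libraries also differ in medium, feeder cells and sorting, so induction and those differences cannot be told apart. In ESC-PGCLC against female ESC, 0 of 13 members differed by at least 25 points, where 0.334% of all did. At 10 points 1 member differed, the Rasgrf1 shore (-10.3 points), against 4.61% of all. Of methylated regions 26.9% differed by 10 points, and the lower quartile of methylated shores was -10.1 points, close to the Rasgrf1 shore. The methylated members had a median of -7.34 points, beside -6.55 points for all methylated regions. In pESC-PGCLC against pESC, again 0 of 15 differed by 25 points, with 0.199% of all, and 1 by 10 points, with 2.25% of all. That member was the Rasgrf1 shore, at -17.0 points, past the 5th percentile of methylated shores (-11.8 points). Of all methylated regions, 10.1% differed by 10 points. Methylated members had a median of -4.70 points, beside -3.74 points for all methylated regions. The shore upstream of Meg3 was 4.76 points higher in pESC-PGCLC than in pESC, where it was listed at 0.

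In ESC-PGCLC against PGC, 9 of 15 members were higher and 6 lower, where 64.1% of all islands and shores were higher. All 4 methylated members were higher, as were 83.2% of methylated regions. The 3 regions farthest into Zdbf2 were lower, at -3.07, -0.244 and -1.41 points. At its internal start the shore was at 0.839 points and the island at -0.108 points. None of 15 members differed by at least 25 points, where 0.243% of all did. At 10 points 2 members differed, the Rasgrf1 shore (19.6 points) and the shore upstream of Meg3 (19.2 points), both higher in ESC-PGCLC, against 3.48% of all. Among methylated regions, to which the Rasgrf1 shore belongs, 18.5% differed by 10 points. The members' median was 0.34 points, beside 0.232 points for all, and that of the methylated members 6.01 points, beside 4.84 points. By contrast the 44 regions at maternally methylated loci had a median of -21.6 points in this comparison. Of these, 20 were at least 25 points lower in ESC-PGCLC than in PGC and 0 at least 25 points higher. PGC was thus the more methylated library at many of them, and how far its marks had been erased was not tested.

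At the members pESC-PGCLC lay close to PGC, as it did at most islands and shores. Here 0 of 15 members differed by 25 points, with 0.166% of all, and 0 by 10 points, with 1.82% of all. The median was -0.645 points, with 9 members lower and 6 higher, beside 0.224 points for all. The widest gap was at the Rasgrf1 shore, at -6.18 points, and the Igf2 shores were at 1.26 and -1.22 points. Of the 4 methylated members 3 were lower, with a median of -1.16 points, while 73.7% of methylated regions were higher, with a median of 2.48 points. Of the 44 regions at maternally methylated loci, 0 differed by 25 points, with a median of 4.84 points.

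The regions most like the Rasgrf1 shore over the 5 libraries, among 30897 outside the member windows, were a shore at Smad9 (a mean absolute difference of 3.86 points), shores at Slc35g1 (4.13) and Dysf (4.20), an island at Lrrc8b (4.25) and an island on the X chromosome with no gene near (4.31). In the Smad9 shore the levels were 30.3% in pESC-PGCLC, 42.7% in ESC-PGCLC, 29.1% in PGC, 39.2% in pESC and 53.7% in female ESC. None of the 5 lay at a maternally methylated gene of the list. Those most like the shore upstream of Meg3 over 4 libraries were shores at Cltc, Gdf10, Ncapd3 and Vps26b, Gm33662 and Rpl27-ps2, and Lmo1, within 3.21 to 4.01 points. Each was listed at 0 in pESC, which matching to a shore at 0 there favours.

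Non-CpG cytosines of the members were nearly unmethylated. Over the 14 members with CHG and CHH levels, medians were 0.723% for CHG and 0.616% for CHH, with highest values of 2.56% (CHG, the Dlk1 shore in pESC-PGCLC) and 2.18% (CHH, the shore upstream of Meg3 in ESC-PGCLC). The Zdbf2 island at chromosome 1, 63309157 to 63309711, had neither.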

How the data were processed

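RRBS data of 5 mouse libraries were used, 1 per group. The authors deposited 1 table per library, with a methylation fraction from 0 to 1 per region, its class and its cytosine context. Per the submitters' processing notes, Bismark 0.16.3 and Bowtie2 were used with the build mm10; the sources used here do not give their roles, any coverage filter or how regions were drawn. The deposited fractions carry no counts, so depth and counting error are unknown.

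Levels are printed as percent. Python 3.11.15 with pandas 2.3.3 was used. Regions at least 25 and at least 10 percentage points apart were counted, with no test. Selection and counting returned the known answers on simulated data. That checks the calculation only and does not measure the error of the levels or counts. Gene positions, starts, strands and promoters came from RefSeq tables of the same assembly; the strand of H19 is from general knowledge. A region within 1000 bp of a RefSeq start was placed at that start. All members listed in every library are named with their levels; the 5 regions most like each upstream shore were named by mean absolute difference. Coordinates are as deposited, and their counting base is not stated. The members and lists were chosen with earlier results of these data known. The 20% mean was set after levels had been seen.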

Additional observations from a re-analysis of the deposited data

Results flagged for a closer look

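The shore after the Dlk1 start differed in opposite directions between germ cell-like cells and stem cells in the 2 lines. Induction and the differences in medium, feeder cells and sorting cannot be told apart here. It was 7.41 points higher in ESC-PGCLC than in female ESC, where it was listed at 0, and it differed by -7.09 points in pESC-PGCLC relative to pESC. Opposite changes of at least 5 points, a minimum set after the levels were seen, were found in 1 of 13 members and in 224 of 30942 islands and shores (0.724%). The difference was not tested, and with 1 library a group and no read counts its error is unknown.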

How the results depend on the processing

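With 1 library per group and no read counts, no replicate can be left out and no interval given, so a change of under 1 point was taken as no move. The count of members at least 25 points apart was 0 in 5 of 6 comparisons, where a stricter threshold or fewer regions return 0 by construction. At 10 points the counts were 2 (pESC against female ESC), 2 (pESC-PGCLC against ESC-PGCLC), 1 (ESC-PGCLC against female ESC), 1 (pESC-PGCLC against pESC) and 2 (ESC-PGCLC against PGC). The single region of pESC-PGCLC against ESC-PGCLC, a shore, gave 0 at 40 points and 0 with islands only.

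Of 72 recomputed values, 55 moved by under 1 point. All were medians except the length-weighted means below. With shores only the medians were -3.99 (pESC against female ESC), -5.13 (pESC-PGCLC against ESC-PGCLC), -2.16 (ESC-PGCLC against female ESC), -3.20 (pESC-PGCLC against pESC) and 4.20 points (ESC-PGCLC against PGC). Islands only gave 0.62 points for pESC-PGCLC against pESC, opposite in sign to all members. Length-weighted means were -2.07 (pESC against female ESC), -5.22 (pESC-PGCLC against ESC-PGCLC), -1.23 (ESC-PGCLC against female ESC) and 4.28 points (ESC-PGCLC against PGC). They were set beside medians, so the effect of weighting and that of taking a mean cannot be told apart. Without the Zdbf2 window, pESC-PGCLC against ESC-PGCLC was -3.70 and ESC-PGCLC against PGC 2.54 points. Members with a mean of at least 20%, an alternative chosen after seeing the data, gave -8.32, -5.99, -7.34, -4.70 and 6.01 points in the order of the first 5 comparisons above.

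Weighting by length can move only the 20 interval means taken over more than 1 region, and 13 of them moved by 1 point or more. It gave, for the 2 regions inside Dlk1, 4.45% (pESC-PGCLC), 9.61% (ESC-PGCLC), 5.15% (PGC), 10.9% (pESC) and 4.37% (female ESC), against plain means of 12.2%, 16.2%, 13.0%, 16.6% and 17.5%, since the methylated island is short. For the 3 regions at Igf2 starts it gave 12.7%, 16.0%, 12.4%, 15.2% and 18.9% in the same order. For the 3 regions farthest into Zdbf2 it gave 11.7% (PGC), and for those at the internal Zdbf2 start 5.79% (pESC-PGCLC) and 7.21% (pESC). Subtracting the CHH level gave 26.4% upstream of Meg3 (ESC-PGCLC), and 20.2% (pESC-PGCLC) and 46.1% (ESC-PGCLC) upstream of Rasgrf1. For the regions farthest into Zdbf2, of which 2 had a CHH level, it gave 11.8% (PGC).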
